A study of Mus musculus with 9 samples.

Results

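The genes of the NF-kB subunits and of the IkB proteins that bind them were followed in mouse kidney, in wild-type (WT) mice and in mice with a changed cysteine codon in one of these genes. They were taken by gene name from the count and FPKM tables, and make up 10 of the 52636 genes listed. The 5 subunit genes are Nfkb1, Nfkb2, Rel, Rela and Relb, and the 5 IkB genes are Nfkbia, Nfkbib, Nfkbie, Nfkbiz and Bcl3. All 10 were among the 17114 genes that passed the filter on low counts and were tested.

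RNA sequencing of total kidney RNA gave 9 libraries, 3 from C59A mice, 3 from C59S mice and 3 from WT mice. The C59A and C59S mice are knock-in lines, made in embryonic stem cells of C57BL/6NTac origin, in which the codon for cysteine 59 of Nfkb1 was exchanged. Both alleles also carry a PGK-neo selection cassette in a nearby intron, so neither line differs from WT by the codon alone. By the genotype labels C59A is the activated allele and C59S the inactivated one, but the description's sentence on DNA binding runs the other way round, and no direction was assumed. The description gives alanine for both new codons, GCT and TCA, although TCA is a serine codon in the standard code. Zygosity, age and sex were not given in the sources used here. Whether the 3 libraries of a genotype came from separate animals is not said in the labels, so the p-values below speak of the spread among these libraries, part or all of which may be technical.

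NF-kB is a family of dimeric transcription factors whose subunits share a Rel homology region for DNA binding and dimer formation. In resting cells the classical IkB proteins hold the dimers in the cytoplasm, and signals through the IkB kinases lead to their phosphorylation, ubiquitination and breakdown, after which the dimers enter the nucleus. Several subunit and IkB genes are themselves NF-kB targets, which gives the pathway its feedback, and in the kidney it is best known from the inflammatory response of tubule cells, endothelium and leukocytes to injury.

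The cysteine exchanged in the knock-in lines lies in the DNA-binding part of the Rel homology region, and each of the 5 subunits has a cysteine at the matching place. The coding sequence around it is shown because it is the site that separates the genotypes, with the cysteine codon in capitals in a window of 45 bases on the coding strand (GENCODE M21, GRCm38). In Nfkb1 the window is chr3:135655551-135655595 on the minus strand, and the codon is TGT, codon 59, at bases 135655572 to 135655574 in exon 6 of 25.
Nfkb1: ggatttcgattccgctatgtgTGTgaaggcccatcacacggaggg
Nfkb2: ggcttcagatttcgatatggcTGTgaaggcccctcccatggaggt
Rel: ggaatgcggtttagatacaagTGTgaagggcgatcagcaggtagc
Rela: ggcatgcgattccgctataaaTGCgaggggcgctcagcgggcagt
Relb: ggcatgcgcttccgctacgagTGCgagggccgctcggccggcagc
The matching codon is number 57 in Nfkb2, in exon 5 of 23 (chr19:46306774-46306818, plus strand), and 34 of the 45 bases of that window equal those of Nfkb1. It is codon 27 of Rel, in exon 2 of 10 (chr11:23761064-23761108, minus strand), with 28 equal bases. In Rela it is codon 38, in exon 3 of 11 (chr19:5638607-5638651, plus strand), also with 28 equal bases. In Relb it is codon 122, in exon 4 of 12 (chr7:19619565-19619609, minus strand), with 29 equal bases. Nfkb1, Nfkb2 and Rel use TGT for this cysteine, while Rela and Relb use TGC. The knock-in codons themselves were not read here, since the tables hold counts per gene and no base calls.

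Total counts ran from 16367403 to 25787659 per library, and 3 reads corresponded to 0.112 to 0.202 CPM (counts scaled per 1e+06 to the library's size, corrected by its TMM factor, the scale of all levels below unless FPKM is named). The 9 libraries expressed all 12 kidney epithelial markers, whose summed level was 8278 to 9196 CPM in C59A, 8523 to 8974 CPM in C59S and 11837 to 13935 CPM in WT. The 20 leukocyte markers were all read in every library, at a summed 164 to 296 CPM in C59A, 212 to 257 CPM in C59S and 154 to 202 CPM in WT. Mitochondrial genes took 20.8% to 28.8% of counts in C59A, 20.5% to 40.6% in C59S, with replicate 3 highest, and 16.4% to 19.6% in WT. The C59A libraries held reads of Y-linked genes, with Ddx3y at 43.2 to 46.9 CPM, against at most 0.810 CPM in C59S and at most 0.0953 CPM in WT. Xist, which is expressed from the inactive X chromosome, was at 0.191 to 0.725 CPM in C59A, 885 to 895 CPM in C59S and 816 to 1276 CPM in WT. By these transcripts the C59A libraries had the pattern of male tissue, and the C59S and WT libraries that of female tissue. In every comparison of C59A below, and for every gene, the allele and the sex therefore cannot be told apart.

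Of the 10 genes, only Bcl3 passed the test in any comparison by edgeR. The libraries of all 3 genotypes overlapped for Nfkb2, Rel, Relb, Nfkbia and Nfkbie, and in at least 1 comparison they did not for Nfkb1, Rela, Nfkbib, Nfkbiz and Bcl3. In C59A against WT, 1 of the 10 was called at an adjusted p under 0.05 (edgeR's quasi-likelihood test, Benjamini-Hochberg). This gene, Bcl3, was higher, where 5.7% of all tested genes were called, 3.24% higher and 2.46% lower. At an unadjusted p under 0.05 there were 3 of the 10, against 21% of all tested genes. In C59S against WT, 0 of the 10 were called by edgeR, DESeq2 or limma voom, and edgeR called 0% of all tested genes there. The count over all genes depended on the fit. DESeq2 called 641 genes, with 0 of the 10 among them. For edgeR with C59S and WT alone and a block for the replicate number, chosen after seeing the data, it was 638, again with 0 of the 10. The count was 0 with limma voom, with C59S and WT alone without the block, and with all 9 libraries and the block. In the unpaired edgeR fit of 9 libraries, only 1 of the 10, Nfkbiz, had an unadjusted p under 0.05, against 18.1% of all tested genes. In C59A against C59S, 0 of the 10 were called by edgeR and 1, Bcl3, by both DESeq2 and limma voom, where edgeR called 5.91% of all tested genes, 3.35% higher and 2.56% lower. An unadjusted p under 0.05 was found for 2 of the 10, against 22.9% of all. The comparisons with WT share the same 3 WT libraries, so they are not independent of each other. In bulk tissue, fewer cells of a type and less RNA per cell cannot be told apart.

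**Figure D1:**
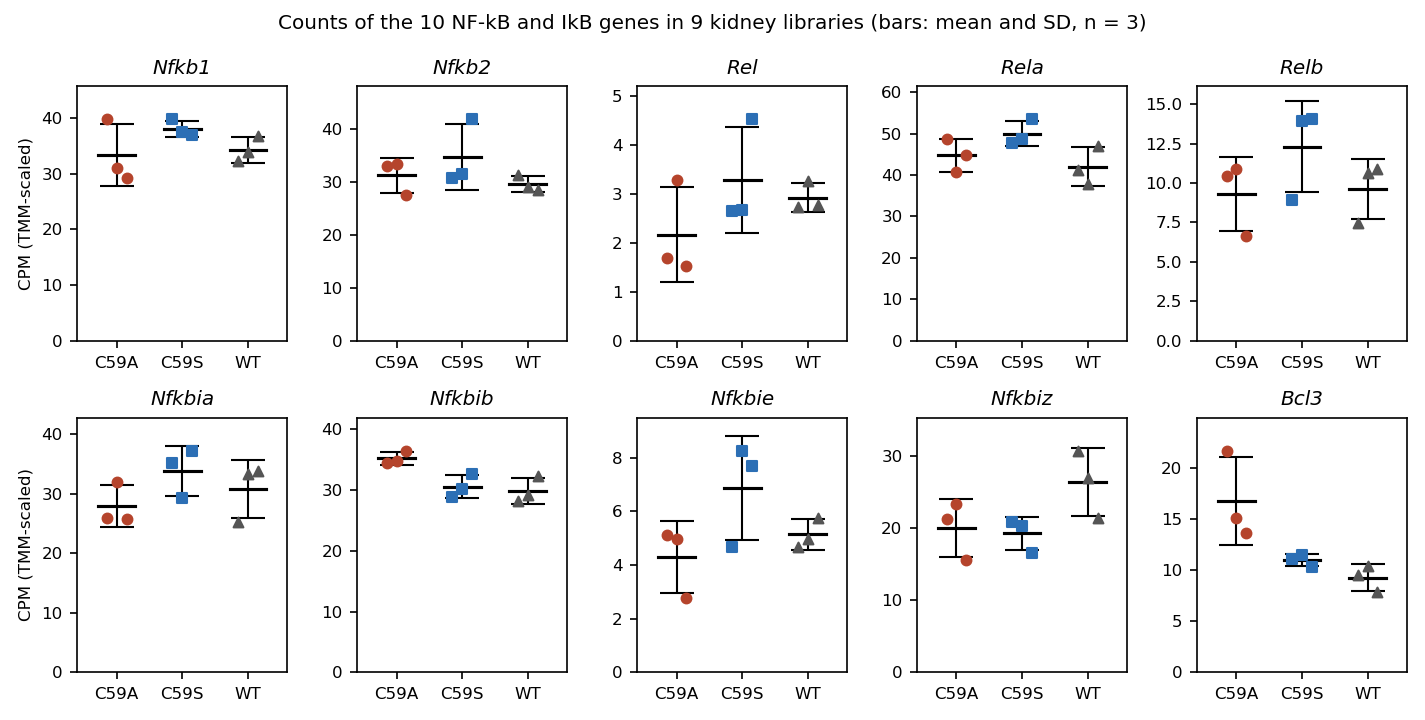
Level of each of the 10 genes (vertical axes, CPM, from 0) in the 3 libraries of C59A (circles), C59S (squares) and WT (triangles), with the mean and SD as bars (n = 3 each). Bcl3 lay at 13.6 to 21.7 CPM in C59A, above the 7.82 to 10.4 CPM of WT, while the groups of most other genes overlapped.

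Nfkb1 encodes the precursor that is processed to the subunit carrying the exchanged cysteine, and it lies at chr3:135584655-135691547 (GRCm38, minus strand). Its level was 39.7, 31.0 and 29.2 CPM in C59A, 39.7, 37.5 and 36.9 CPM in C59S and 32.2, 33.8 and 36.8 CPM in WT. The C59A libraries spread over the widest range and took in all of the WT values, whereas the C59S libraries lay just above those of WT, with a gap of less than 1 CPM. The log2 fold change was -0.04 ± 0.13 (SE; 95% interval -0.33 to 0.24) in C59A against WT and 0.15 ± 0.13 (-0.13 to 0.43) in C59S against WT, with adjusted p of 0.896 and 0.567 in edgeR's quasi-likelihood test. The small value of C59A turned positive, to 0.04 at most, with limma voom or with the mitochondrial share as a covariate, and that of C59S turned to -0.04 with library totals in place of TMM factors. Neither interval reaches a change of 1 log2 unit in Nfkb1 RNA. Genes with patterns most like that of Nfkb1 over the 9 libraries were Cacng7 (Pearson r 0.95 of log2 CPM, 0.93 within genotypes), Tmem71 (r 0.92, 0.91 within genotypes) and Zfp938 (r 0.91, 0.92 within genotypes). They are the 3 highest among the other tested genes, all values come from the same 9 libraries, and they are given as a description.

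Nfkb2, the gene of the other precursor subunit, which is processed in the non-canonical pathway, lies at chr19:46304737-46312090 (plus strand). It was read at 33.1, 33.3 and 27.5 CPM in C59A, 30.7, 31.5 and 41.8 CPM in C59S and 31.4, 29.1 and 28.5 CPM in WT. C59S replicate 3 stood alone at the top, and the other 8 libraries kept between 27.5 and 33.3 CPM. Against WT the difference was 0.08 ± 0.14 on the log2 scale in C59A and 0.22 ± 0.14 in C59S, neither called. Relb (chr7:19606217-19629438, minus strand), whose protein pairs mainly with the processed Nfkb2 product, was at 10.4, 10.9 and 6.63 CPM in C59A, 8.95, 13.9 and 14.0 CPM in C59S and 7.46, 10.6 and 10.9 CPM in WT. Within each genotype 1 library lay well below the other 2, and the groups overlapped. Its log2 fold change was -0.05 ± 0.25 in C59A and 0.35 ± 0.24 in C59S against WT, with adjusted p of 0.935 and 0.474 in edgeR's test.

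Rela encodes the main transactivating subunit and lies at chr19:5637483-5648130 (plus strand). It had the most reads per library of the 10 genes, with 48.7, 40.7 and 44.9 CPM in C59A, 47.7, 48.8 and 53.4 CPM in C59S and 41.2, 37.8 and 47.1 CPM in WT. The 3 C59S libraries lay above all of WT, by less than 1 CPM at the closest, and the C59A libraries overlapped both other groups. In C59S against WT the log2 fold change was 0.25 ± 0.12 (95% interval -0.02 to 0.51; adjusted p 0.302 in edgeR's test), and in C59A against WT it was 0.09 ± 0.12 (-0.17 to 0.36). Rel (chr11:23736847-23770970, minus strand), the subunit gene best known from lymphocytes and myeloid cells, was the rarest, with 28, 58 and 32 reads in C59A, 71, 59 and 67 reads in C59S and 65, 65 and 58 reads in WT. On the CPM scale this was 1.69, 3.29 and 1.53 in C59A, 2.65, 2.66 and 4.52 in C59S and 2.74, 3.27 and 2.77 in WT, and C59A replicate 2 lay above all of the WT libraries while the other 2 C59A libraries lay below them. The log2 fold change of Rel in C59A against WT, -0.43 ± 0.35, had an interval of -1.19 to 0.33, which holds both 0 and a fall of 1 log2 unit.

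Nfkbia encodes IkB alpha, the classical inhibitor that NF-kB itself induces, and lies at chr12:55489410-55492647 (minus strand). It was at 26.0, 32.0 and 25.8 CPM in C59A, 35.2, 29.2 and 37.2 CPM in C59S and 25.2, 33.3 and 33.8 CPM in WT. All 3 groups overlapped. Log2 fold changes were -0.14 ± 0.15 in C59A and 0.14 ± 0.15 in C59S against WT, and -0.28 ± 0.15 in C59A against C59S (adjusted p 0.306, edgeR's test). The sign of the C59S value turned with library totals (-0.07) and with the mitochondrial share as a covariate (-0.02). Nfkbie (chr17:45555716-45563169, plus strand), the gene of IkB epsilon, another feedback inhibitor, was lower in reads, with 5.13, 4.99 and 2.76 CPM in C59A, 4.66, 8.26 and 7.69 CPM in C59S and 4.68, 4.98 and 5.77 CPM in WT. C59S replicates 2 and 3 were the 2 highest libraries and C59A replicate 3 the lowest. The C59S group overlapped the others only through its replicate 1, and C59A and WT overlapped each other. The log2 fold change of Nfkbie was -0.68 ± 0.29 in C59A against C59S (95% interval -1.30 to -0.05; unadjusted p 0.0362, adjusted p 0.185 in edgeR's test).

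Nfkbib encodes IkB beta, an inhibitor that is broken down more slowly than IkB alpha, and lies at chr7:28758251-28767512 (minus strand). It was at 34.5, 34.7 and 36.4 CPM in C59A, 28.8, 30.1 and 32.7 CPM in C59S and 28.2, 29.1 and 32.3 CPM in WT. All C59A libraries lay above all C59S and all WT libraries. The log2 fold change was 0.24 ± 0.11 in C59A against WT (95% interval 0.00319 to 0.47; unadjusted p 0.0474, adjusted p 0.231) and 0.21 ± 0.11 in C59A against C59S (-0.03 to 0.44; adjusted p 0.280), in edgeR's test. Neither was called. In C59S against WT the value was 0.03 ± 0.11, with an interval of -0.20 to 0.27. Among tested genes read in all libraries, 2.49% had a smaller spread within genotypes than Nfkbib, whose SD was 0.0828 on the log2 CPM scale.

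Nfkbiz encodes IkB zeta, a nuclear IkB protein that acts with NF-kB on secondary response genes, and lies at chr16:55811375-55838899 (minus strand). It was at 21.3, 23.3 and 15.5 CPM in C59A, 20.9, 20.3 and 16.6 CPM in C59S and 30.7, 27.0 and 21.4 CPM in WT. The C59S libraries all lay below those of WT, the closest by less than 1 CPM, and C59A replicate 2 lay above WT replicate 3. The log2 fold change was -0.40 ± 0.18 in C59A against WT (unadjusted p 0.0461, adjusted p 0.228) and -0.45 ± 0.18 in C59S against WT (95% interval -0.84 to -0.06; unadjusted p 0.0270, adjusted p 0.225), in edgeR's test. It was the only one of the 10 genes with a negative value in both comparisons with WT in which both unadjusted p were under 0.05, and neither passed the adjustment. In C59A against C59S the value was 0.05 ± 0.18, with an interval of -0.34 to 0.44.

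Bcl3 encodes a nuclear IkB protein that binds homodimers of the processed Nfkb1 and Nfkb2 products and can turn them into activators, and lies at chr7:19808462-19822770 (minus strand), on the same chromosome and strand as Relb. It was at 21.7, 15.1 and 13.6 CPM in C59A, 11.1, 11.5 and 10.3 CPM in C59S and 9.52, 10.4 and 7.82 CPM in WT, from 359, 267 and 285 reads in C59A, 297, 254 and 153 in C59S and 226, 207 and 164 in WT. Each C59A library lay above each C59S and each WT library, with C59A replicate 1 far above the other 2, and C59S replicate 3 lay within the range of WT. Means were 16.8 ± 4.29 CPM in C59A, 11.0 ± 0.578 CPM in C59S and 9.25 ± 1.32 CPM in WT (SD, n = 3 each). Bcl3 rose 1.81-fold in C59A against WT (log2 fold change 0.86 ± 0.19, 95% interval 0.44 to 1.27; adjusted p 0.0227 in edgeR's quasi-likelihood test, Benjamini-Hochberg). In C59A against C59S the log2 fold change was 0.61 ± 0.19 (0.20 to 1.03; adjusted p 0.0818), and in C59S against WT it was 0.25 ± 0.19 (-0.17 to 0.66; adjusted p 0.520). The call against WT was lost without C59A replicate 1 (adjusted p 0.0902), WT replicate 1 (0.0690) or WT replicate 3 (0.0631), and with library totals alone (log2 fold change 0.64, adjusted p 0.126).

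Markers of other cell types were read in the same comparison as Bcl3. Of the 20 leukocyte markers, 4 rose in C59A against WT, all genes of neutrophils and other myeloid cells: S100a8 (log2 fold change 3.36 ± 0.61, adjusted p 0.00905), S100a9 (3.04 ± 0.48, 0.00397), Csf3r (1.58 ± 0.26, 0.00458) and Itgam (1.64 ± 0.39, 0.0317), in edgeR's test. The calls of S100a9 and Csf3r held when any 1 library was left out, that of S100a8 was lost without WT replicate 1 (adjusted p 0.0504), and that of Itgam without any of 5 libraries (up to 0.0942). S100a8 reached 3.08 to 4.99 CPM in C59A, against 0.211 to 0.524 CPM in WT. Of the 12 kidney epithelial markers, 4 fell in C59A against WT, where 2.46% of all tested genes were called lower. The median log2 fold change of the 12 was -0.57, with 3 positive. Slc5a2, the glucose transporter of the proximal tubule, had the smallest adjusted p (log2 fold change -1.44 ± 0.23, adjusted p 0.00412, edgeR's test). It stayed under the threshold whichever library was omitted. Each of the other called markers missed the threshold in at least 1 such fit (adjusted p up to 0.107). Of the 14 immediate early genes, 1 rose, Socs3, a cytokine feedback gene, by 1.22 ± 0.27 (adjusted p 0.0242), a share near the 5.7% of all tested genes. Its call was lost without C59A replicate 1, WT replicate 1 or WT replicate 3 (adjusted p up to 0.102), and the median of the 14 was -0.24, with 5 positive. The summed leukocyte markers were 206, 296 and 164 CPM in C59A replicates 1, 2 and 3. All 7 adipocyte markers were positive in C59A against WT, at a summed 162 to 273 CPM in C59A and 27.4 to 63.7 CPM in WT. None of the 7 was called by edgeR. The part of cell makeup in the Bcl3 difference was not tested.

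**Figure D2:**
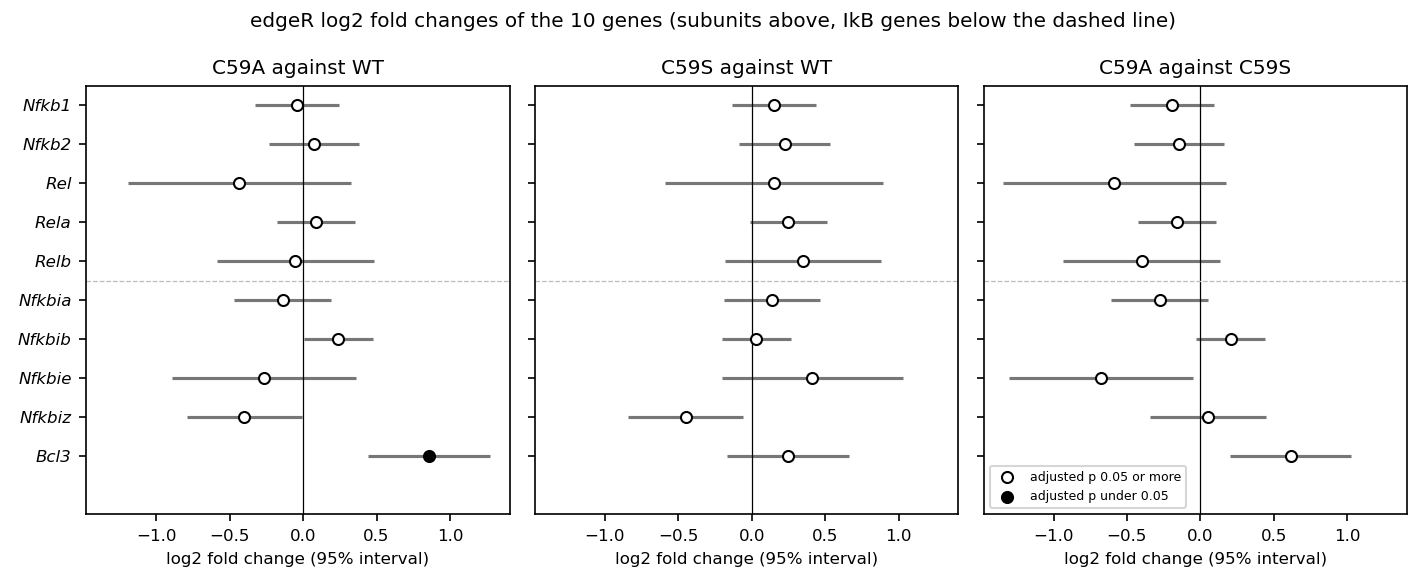
Log2 fold change (horizontal axis) with its 95% interval for each of the 10 genes in C59A against WT, C59S against WT and C59A against C59S, from edgeR, with the subunit genes above the dashed line. The only filled point, an adjusted p under 0.05, is Bcl3 in C59A against WT at 0.86, and in C59S against WT 9 of the 10 points lie right of 0, none of them filled.

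The 10 genes were also set beside all tested genes. In C59A against WT, 2 of the 10, Nfkbib and Bcl3, had groups that did not overlap, both higher, against 24.6% of all tested genes and 12.6% for those higher. In C59S against WT, 3 of the 10 did not overlap, Nfkb1 and Rela higher and Nfkbiz lower, against 22.5% of all tested genes, 11.2% higher and 11.3% lower. In C59A against C59S, 2 of the 10, Nfkbib and Bcl3, did not overlap, both higher, against 29.3% of all tested genes and 14.7% for those higher. The median log2 fold change of the 10 was -0.05 in C59A against WT, where that of all tested genes was -0.02, and -0.18 in C59A against C59S, where that of all was -0.01. In C59S against WT it was 0.19, where that of all was 0.01, and 9 of the 10 values were positive, those of all 5 subunit genes included, with Nfkbiz the exception. With library totals alone the median of all tested genes moved to -0.19 in that comparison, and Nfkb1, Rel, Nfkbia and Nfkbib turned negative with it, at -0.04, -0.08, -0.07 and -0.17. The markers of other cell types had these values in the same comparison. The 10 endothelial markers were all positive in C59S against WT (median log2 fold change 0.83), at a summed 1259 to 1559 CPM in C59S and 453 to 1134 CPM in WT, and 19 of the 20 leukocyte markers were positive (median 0.44). The 7 adipocyte markers summed to 153 to 1277 CPM in C59S and 27.4 to 63.7 CPM in WT. None of these markers was called by edgeR there, and their part in the values of the 10 genes was not tested.

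Compared per length, the 10 genes spanned a wide range of levels. In mean FPKM over the 9 libraries the order was Nfkbia at 18.9, Rela at 16.6, Nfkbib at 14.5, Nfkb2 at 9.56, Bcl3 at 4.92, Nfkbiz at 4.30, Nfkb1 at 2.88, Relb at 2.65, Nfkbie at 2.21 and Rel at 0.368, and the median of all tested genes was 3.27. The inhibitor genes Nfkbia and Nfkbib thus had levels per length like that of Rela. Of the 9 steps between neighbours in this order, 4 held in all 9 libraries: Nfkbib above Nfkb2, Nfkb2 above Bcl3 (2.10 times on average), Nfkbiz above Nfkb1 (1.51 times) and Nfkbie above Rel. Relb was above Nfkbie in 8 libraries, Nfkbia above Rela in 7, Rela above Nfkbib in 7, Bcl3 above Nfkbiz in 6 and Nfkb1 above Relb in 6. The ranges over the 9 libraries overlapped except at the step between Nfkbib and Nfkb2 and at the step between Nfkbie and Rel. Bcl3 and Nfkbiz changed places between genotypes. Bcl3 averaged 6.71 ± 1.68 FPKM in C59A, 4.38 ± 0.228 in C59S and 3.66 ± 0.514 in WT, and Nfkbiz averaged 3.95 ± 0.750 FPKM in C59A, 3.79 ± 0.440 in C59S and 5.15 ± 0.902 in WT (SD, n = 3 each).

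The place of Nfkb1 in that order depended on the gene length. The FPKM table divides Nfkb1 by 12061 bases, the length deposited for the gene, which is 2.93 times the 4117 bases of its principal transcript in GENCODE M21. For Relb the ratio was 1.76, for Bcl3 1.34 and for Nfkbiz 1.22. With principal transcript lengths, an alternative chosen after seeing the data, Nfkb1 averaged 8.44 FPKM and came 5th, ahead of Bcl3 at 6.58 and Nfkbiz at 5.24. Its share of the summed subunit level was then 20.6% in C59A, 20.8% in C59S and 21.9% in WT, against 8.75%, 8.91% and 9.41% with the deposited length. Under either length Nfkbia, Rela, Nfkbib and Nfkb2 were the 4 highest and Rel the lowest. Comparisons of a gene between genotypes do not depend on its length.

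**Figure D3:**
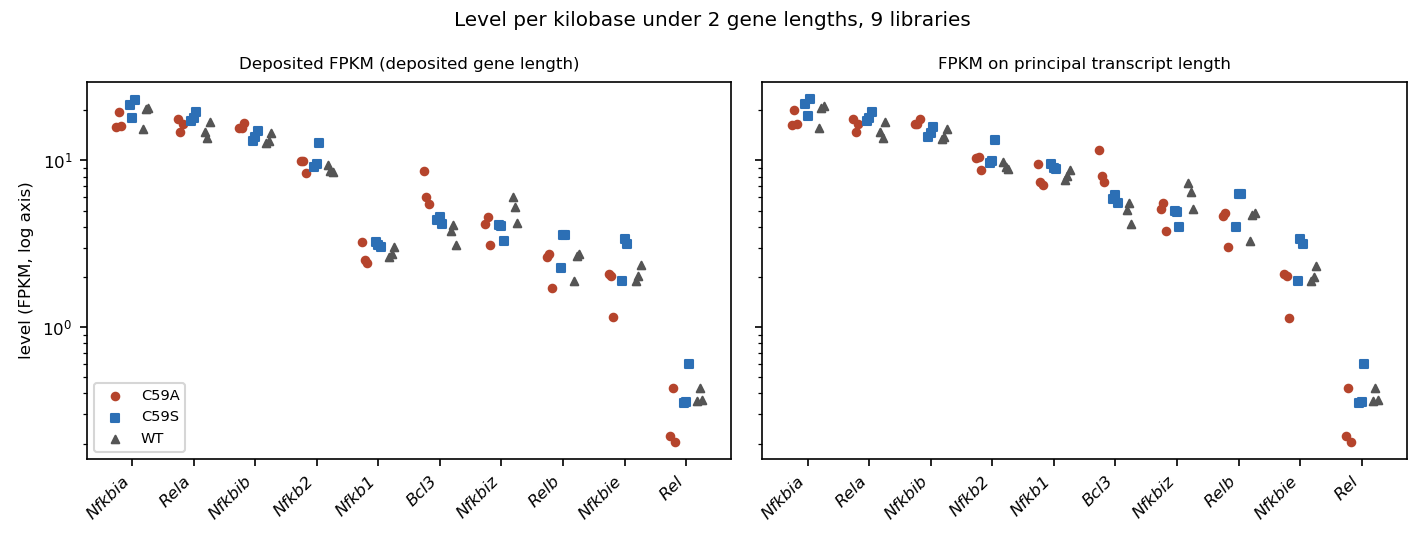
Level per length of the 10 genes (FPKM, log axis) in each of the 9 libraries, with the deposited gene length (left) and with the principal transcript length (right), for C59A (circles), C59S (squares) and WT (triangles). Nfkb1 averages 2.88 FPKM on the left and 8.44 FPKM on the right, while Rel is lowest in both at 0.368 FPKM.

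Both gene groups were compared by a ratio, the summed FPKM of the 5 IkB genes over that of the 5 subunit genes. The IkB sum includes Bcl3 and Nfkbiz, genes of nuclear proteins that act with NF-kB, so it is not a sum of inhibitors alone. The ratio was 1.38, 1.58 and 1.46 in C59A, 1.39, 1.28 and 1.23 in C59S and 1.37, 1.59 and 1.42 in WT. C59S replicates 2 and 3 were the lowest. C59S replicate 1 lay within the ranges of C59A and of WT, which overlapped each other. Within the IkB genes, Bcl3 made up 18.6%, 12.5% and 12.9% of the summed level in C59A, 9.80%, 10.5% and 8.54% in C59S and 9.48%, 9.19% and 6.92% in WT, so the C59A libraries lay above the other 6. The ratio of Nfkbib to Nfkbia was 0.983, 0.805 and 1.05 in C59A, 0.608, 0.764 and 0.651 in C59S and 0.829, 0.648 and 0.709 in WT. It was higher in each C59A library than in each C59S library, and C59A replicate 2 lay within the range of WT. These ratios use levels per length and describe RNA, and no test was made on them.

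The genes also differed in how much they varied between libraries of 1 genotype. The SD within genotypes on the log2 CPM scale was 0.0828 for Nfkbib, 0.129 for Rela, 0.150 for Nfkb1, 0.175 for Nfkb2 and 0.201 for Nfkbia, all below the median of 0.252 for tested genes. It was 0.242 for Bcl3 and 0.255 for Nfkbiz, and 0.359 for Relb, 0.400 for Nfkbie and 0.439 for Rel, the 3 genes with fewest reads. Of the 45 pairs of the 10 genes, 29 had a positive Pearson r over the 9 libraries, with a median of 0.13. The highest r was that of Relb and Nfkbie at 0.93 (Spearman's rho 0.88), which was 0.93 within genotypes and 0.84 over the 7 libraries left without the 2 farthest from the median. The lowest was that of Rela and Nfkbiz at -0.70 (rho -0.68), which was -0.57 within genotypes. These values rest on 9 libraries that share preparation and depth for all genes, and are given as a description.

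**Figure D4:**
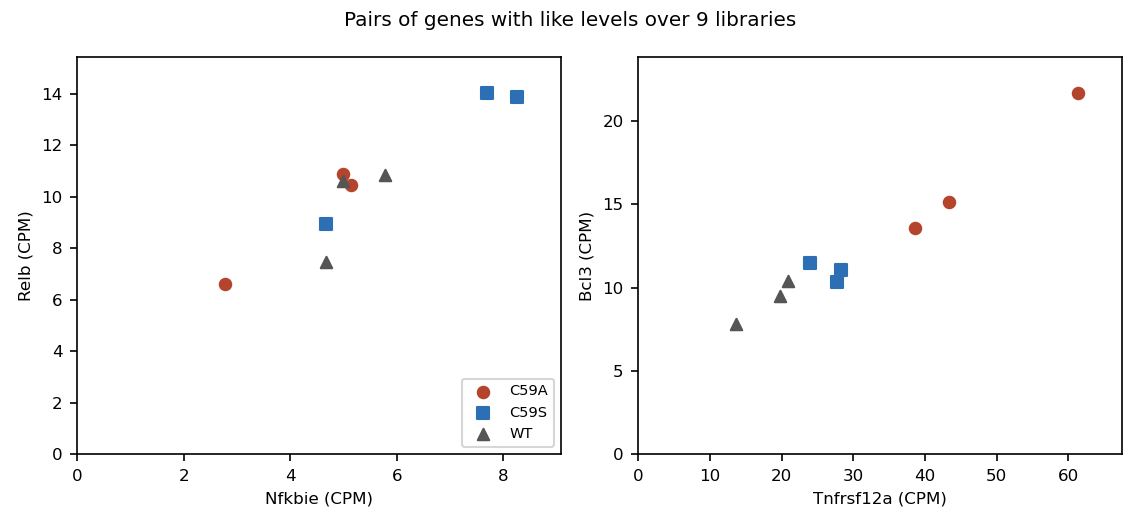
Relb against Nfkbie (left) and Bcl3 against Tnfrsf12a (right), both axes in CPM from 0, one point per library of C59A (circles), C59S (squares) and WT (triangles). Libraries with more Nfkbie had more Relb (r 0.93), and C59A replicate 1 is the highest point of the right panel, at 61.3 CPM of Tnfrsf12a and 21.7 CPM of Bcl3.

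The gene with the pattern most like that of Bcl3 was Tnfrsf12a, the receptor of the cytokine TWEAK, which signals to NF-kB. Its level was 61.3, 43.3 and 38.7 CPM in C59A, 28.3, 23.9 and 27.7 CPM in C59S and 19.8, 20.9 and 13.6 CPM in WT. The 3 genotypes did not overlap, and the C59A libraries kept the order that Bcl3 had among them. The Pearson r of log2 CPM with Bcl3 was 0.96 over the 9 libraries and 0.89 within genotypes. The next genes were Ppfibp1 (r 0.96, 0.93 within genotypes) and Hs6st2 (r 0.96, 0.82 within genotypes), the latter at only 0.906 to 2.23 CPM. These genes were picked as the highest by r among the other tested genes, from the same 9 libraries, and are given as a description. The 9 points fall partly into genotypes, so the value within genotypes is given beside the pooled one.

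Of 76 other genes of the pathway, 70 were tested, and most had no call. In C59A against WT, 3 of the 70 rose and none fell, against 5.7% of all tested genes, with a median log2 fold change of 0.06 and 15 at an unadjusted p under 0.05, against 21% of all. Tnfrsf12a rose by 1.40 ± 0.20 (log2 fold change; adjusted p 0.00240), Rnf11, a part of the A20 ubiquitin-editing complex that restrains the pathway, by 0.65 ± 0.12 (adjusted p 0.00948), and Fbxw11, an F-box protein that binds phosphorylated IkB, by 0.74 ± 0.15 (adjusted p 0.0171), in edgeR's test. The calls of Tnfrsf12a and Rnf11 held when any 1 library was left out, while that of Fbxw11 was lost without WT replicate 1 (adjusted p 0.0690), WT replicate 3 (0.0517) or C59A replicate 3 (0.0698). In C59S against WT, 0 of the 70 were called by edgeR or limma voom and 1, Csf1, by DESeq2 (named after its values were seen), with 12 at an unadjusted p under 0.05, against 18.1% of all tested genes, and the median was 0.08. In C59A against C59S, 3 rose and 1 fell, against 5.91% of all tested genes, with 13 at an unadjusted p under 0.05, against 22.9%.

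The 3 that rose in C59A against C59S were Chuk, the gene of the kinase IKK alpha (log2 fold change 0.81 ± 0.15, adjusted p 0.0117), Fbxw11 (0.67 ± 0.15, 0.0297) and Tnfrsf12a (0.84 ± 0.19, 0.0306), in edgeR's test. Chuk was at 89.2 to 112 CPM in C59A and 57.1 to 63.0 CPM in C59S, with WT at 61.6 to 89.6 CPM, and its call was lost without C59A replicate 1 (adjusted p 0.0562) or C59S replicate 3 (0.0597). The calls of Fbxw11 and Tnfrsf12a were each lost without any of 4 libraries, with adjusted p of up to 0.113 and 0.112. Nos2, the inducible nitric oxide synthase and a target of NF-kB, fell by 2.03 ± 0.52 (adjusted p 0.0444), at 0.170 to 0.524 CPM in C59A and 0.857 to 2.50 CPM in C59S, and its call was lost without any of 6 libraries. Among the list of 22 target genes, 17 were tested, and their median log2 fold change was 0.20 in C59A against WT, 0.42 in C59S against WT and -0.12 in C59A against C59S, where all tested genes had -0.02, 0.01 and -0.01. The endothelial markers had medians of 0.02, 0.83 and -0.80 in these comparisons, and 2 of the 10, Pecam1 (-0.92 ± 0.22, adjusted p 0.0396) and Cdh5 (-0.95 ± 0.24, 0.0478), fell in C59A against C59S in edgeR's test, each call lost without any of 6 libraries. Their part in the target gene values was not tested. None of the 17 target genes was called by edgeR in either comparison with WT. Csf1, which DESeq2 called in C59S against WT, is among them. Il6, Tnf, Cxcl2, Ccl20 and Sele had too few reads to be tested.

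The upstream regions of the members were searched for the kB consensus, the DNA motif of 10 bases bound by NF-kB dimers, on both strands in the 250 bases before each annotated start (RefSeq, GRCm38.p6). The motif was found in 7.25% of 32851 windows of this length in the RefSeq table, with matches on both strands at 1 place counted once. Of the 9 windows of members, 3 of them of Nfkb2, 6 held it. These belong to Nfkbia, Nfkb2, Rel and Nfkbie, 4 of the 7 members with a window, and none was found in those of Rela, Nfkbib and Bcl3. The windows of Bcl3, the gene called in C59A, and of Nfkbia, the member with the highest level per length, are shown with the match in capitals. That of Bcl3 is chr7:19822756-19823005 and that of Nfkbia chr12:55492648-55492897, both on the minus strand, and the match in Nfkbia begins 29 bases before the start.
Bcl3: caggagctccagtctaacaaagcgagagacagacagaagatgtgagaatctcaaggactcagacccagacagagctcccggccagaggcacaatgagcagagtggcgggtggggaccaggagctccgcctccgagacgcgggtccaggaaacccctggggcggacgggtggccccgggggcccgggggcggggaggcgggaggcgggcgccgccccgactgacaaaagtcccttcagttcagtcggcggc
Nfkbia: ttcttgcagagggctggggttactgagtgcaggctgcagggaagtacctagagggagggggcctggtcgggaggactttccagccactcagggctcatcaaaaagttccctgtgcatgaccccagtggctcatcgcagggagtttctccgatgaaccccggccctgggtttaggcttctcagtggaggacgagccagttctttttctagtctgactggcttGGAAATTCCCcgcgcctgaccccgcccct
A match is a description of letters in this window, and binding was not measured in these samples.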

How the data were processed

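Total RNA of 9 mouse kidney samples, 3 each of C59A, C59S and WT by the genotype in the labels, was isolated with TRIzol, and libraries were prepared with a NEBNext Ultra RNA kit, per the labels' protocols. The submitters' processing notes name GRCm38 as the build, and as tools DESeq2 1.20.0, featureCounts 1.5.0-p3, HISAT2 2.0.5, fastp and CASAVA 1.8. The annotation release, the strand setting and the treatment of multi-mapped reads were not given in the sources used here, so reads of antisense or copied genes may be shared. The deposited counts are raw whole numbers per gene. The deposited FPKM values equal those counts divided by the gene length and by 1 constant per library, between 0.802 and 1.15 times its total, as tested on the files. Libraries of 1 genotype differed beyond sampling noise, with a chi-square per degree of freedom of 22.3 to 123, so none repeated the reads of another. This value cannot tell separate animals from separate preparations of 1 animal.

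Genes were filtered with filterByExpr, scaled with TMM factors (0.797 to 1.124) and modelled over the 9 libraries together with robust estimateDisp and glmQLFit (edgeR 4.0.16, R 4.3.3). Comparisons used edgeR's quasi-likelihood test, with p adjusted by Benjamini-Hochberg over the 17114 genes, and a gene was called at an adjusted p under 0.05. The same steps were also run on simulated counts with known changes, drawn with the dispersions estimated here. That run checks the steps and not the calls made in these data. Log2 CPM for correlations used a prior count of 2. Coding windows and transcript lengths came from GENCODE M21, and promoters from RefSeq tables of GRCm38.p6, which hold 7 of the 10 members and no entry for Nfkb1, Relb or Nfkbiz. Depth limits precision most for Rel and Nfkbie, and 3 counts were taken as the floor.

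The members and lists were chosen with earlier results of these data known. Named genes were the 10 members, called genes of the pathway and marker lists (at most 3 of smallest p per list and comparison), the sex-linked genes, and for Nfkb1 and each called member the 3 genes with the highest Pearson r. Alternatives were RLE factors, library totals, no filter or 1 CPM in 3 libraries, no robust estimation, mitochondrial genes left out or their share as a covariate, only the genotypes compared, DESeq2 1.42.0, limma 3.58.1 (voom with quality weights, and log2 FPKM with a pseudocount of 1 or 0.1, filtered at a mean of 0.5 FPKM or, for the first, unfiltered), each library left out, and a block for the replicate number in the titles. The numbers were checked for pairing by the correlation of deviations from genotype means. Between libraries of the same number it was 0.32, 0.20 and 0.26 in C59S and WT. It was -0.09 to 0.05 in C59A and WT and -0.29 to 0.05 in C59A and C59S. Among libraries of other genotypes, each WT library correlated best with the C59S library of its number. C59S replicates 1 and 3 also matched WT of their number best, but C59S replicate 2 matched C59A replicate 3. The numbers thus pair C59S and WT only in part, and no label states a pairing. The deposited column names number these libraries differently from the titles.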

Additional observations from a re-analysis of the deposited data

How the results depend on the processing

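Of 694 values of the 10 genes under alternatives, 662 kept their direction and their side of the threshold, 5 lost a call, 2 gained one and 25 turned their sign, none of these last a called value. The count called in C59A against WT was 0 with library totals alone, 0 with log2(FPKM + 1) and no filter, and 0 to 1 with 1 library left out. Bcl3 ran from 0.64 to 0.99 there, with adjusted p from 0.00155 to 0.126, and 0.71 (0.0702) for that FPKM fit. In C59A against C59S the count was 1 with DESeq2 and 1 with limma voom, which put Bcl3 at 0.62 (adjusted p 0.0386) and 0.70 (0.0390). Signs turned in C59A against WT for Nfkb1 (0.0176 with the mitochondrial share, 0.0448 with voom), Nfkb2 (-0.15 with totals, -0.0545 with the mitochondrial share), Rela (-0.14 with totals) and Relb (0.00878 with voom). They turned in C59S against WT for Nfkb1 (-0.0429), Rel (-0.0813), Nfkbia (-0.0698) and Nfkbib (-0.17) with totals, and for Rel (-0.41), Nfkbia (-0.0242) and Nfkbib (-0.0235) with the mitochondrial share. With library totals the median over all genes tested was -0.26 in C59A against WT, where the share called higher was 20.0% against 56.8% with TMM. With 1 library left out, values crossed 0 for Nfkb1 (-0.18 to 0.0460) and Relb (-0.21 to 0.15) in C59A against WT, Rel (-0.13 to 0.29) and Nfkbib (-0.0163 to 0.0945) in C59S against WT, and Nfkb2 (-0.23 to 0.00620) and Nfkbiz (-0.0721 to 0.21) in C59A against C59S. The cause of these shifts was not tested. The replicate block changed no call of the 10 genes: 1, 0 and 0 were called in C59A against WT, C59S against WT and C59A against C59S, with Bcl3 at 0.85 (adjusted p 0.0240) in the first. With C59S and WT alone and the block, a pairing fit chosen after seeing the data, 0 of the 10 and 638 genes in all were called. Nfkbiz was at -0.46 there (adjusted p 0.0625, edgeR's test). The fit of 9 libraries called 0 genes in this comparison with or without the block, as did that of C59S and WT alone without it. Counts over all genes were 434 to 1613 in C59A against WT where edgeR with TMM gave 975, 0 to 737 in C59S against WT (641 with DESeq2, 737 without WT replicate 3) and 318 to 1768 in C59A against C59S, where it gave 1012. The ratio of summed IkB to subunit level was 1.30, 1.12 and 1.25 in C59A, C59S and WT with principal transcript lengths, and 0.865, 0.736 and 0.857 with CPM. Rel was left out of both FPKM fits with a filter.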
